A study of Mus musculus with 6 samples.

Results

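The nonreceptor tyrosine phosphatases described here are 10 genes, Ptpn1, Ptpn2, Ptpn4, Ptpn5, Ptpn6, Ptpn7, Ptpn11, Ptpn12, Ptpn13 and Ptpn22, out of 13709 gene rows in a count table from mouse Tregs. They were chosen by symbol, with the KO and WT counts of these same samples already known, so their differences between genotypes are given as a description, with no p-value. Where a member is said to pass cutoffs, this only sorts it by the rule applied to every gene. RNA-Seq had been done on 3 WT and 3 KO samples of CD4+YFP+CD25+ Tregs, the CD4+ T cells that express Foxp3 and restrain other T cells. The WT mice were Foxp3Cre per the study's methods and wild-type littermates per the labels, and the KO mice were Foxp3Cre Zfp335 fl/fl, all on C57BL/6. Per the methods, mice of both genotypes were 2 weeks old. Both genotypes carried the YFP-Cre fusion made from the Foxp3 locus, so in KO mice the floxed Zfp335 gene is lost in cells that express or have expressed Foxp3. The labels named both lymph nodes and spleen as the source, and the number of mice behind a sample was not stated, so p-values measure only the spread between these samples.

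Protein tyrosine phosphatases remove phosphate from tyrosine with a conserved catalytic cysteine and so oppose the tyrosine kinases. The nonreceptor members lack a membrane-spanning segment, and domains outside the catalytic one decide where each of them acts. Ptpn1 and Ptpn2 act on Jak and Stat proteins, Ptpn6 and Ptpn11 bind phosphorylated receptors and adaptors through paired SH2 domains, Ptpn22 and Ptpn12 belong to the PEST group, Ptpn5 and Ptpn7 dock on MAP kinases, and Ptpn4 and Ptpn13 carry FERM and PDZ domains. In T cells Ptpn2, Ptpn6 and Ptpn22 are known as brakes on antigen receptor and cytokine signals.

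The promoters of the members with the largest fall and the largest rise, and those of Ptpn7, the nearest relative of Ptpn5 among the members, are shown so that their letters can be set beside the counts. Each line gives the 250 bases before a RefSeq transcription start in GRCm38.p6, 5′ to 3′ on the strand of the gene. Capitals mark every match, on either strand, to 7 motif words: GGAAA (the NFAT core), TTCNNNGAA (STAT), TGTGGT (Runx), TGANTCA (AP-1), TGACGTCA (CRE), GGGCGG (Sp) and CCAAT. The first Ptpn5 window is chr7:47133685-47133934 on the minus strand, the Ptpn13 window is chr5:103424942-103425191 on the plus strand, and the Ptpn7 windows are chr1:135132450-135132699 and, before another start, chr1:135133059-135133308 on the plus strand.
Ptpn5 window 1: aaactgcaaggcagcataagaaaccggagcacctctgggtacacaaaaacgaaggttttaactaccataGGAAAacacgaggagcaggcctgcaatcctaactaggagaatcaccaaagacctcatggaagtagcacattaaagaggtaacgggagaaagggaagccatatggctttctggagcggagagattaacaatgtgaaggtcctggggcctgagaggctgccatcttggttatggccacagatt
Ptpn13: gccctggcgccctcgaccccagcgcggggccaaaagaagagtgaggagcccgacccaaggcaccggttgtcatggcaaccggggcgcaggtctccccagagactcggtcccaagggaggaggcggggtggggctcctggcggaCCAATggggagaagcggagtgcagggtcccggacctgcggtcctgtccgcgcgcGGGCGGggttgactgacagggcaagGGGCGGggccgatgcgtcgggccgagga
Ptpn7 window 1: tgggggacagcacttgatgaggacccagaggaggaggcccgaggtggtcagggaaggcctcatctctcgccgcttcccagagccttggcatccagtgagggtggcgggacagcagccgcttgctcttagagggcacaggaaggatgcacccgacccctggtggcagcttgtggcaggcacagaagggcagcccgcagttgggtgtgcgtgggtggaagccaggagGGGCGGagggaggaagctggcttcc
Ptpn7 window 2: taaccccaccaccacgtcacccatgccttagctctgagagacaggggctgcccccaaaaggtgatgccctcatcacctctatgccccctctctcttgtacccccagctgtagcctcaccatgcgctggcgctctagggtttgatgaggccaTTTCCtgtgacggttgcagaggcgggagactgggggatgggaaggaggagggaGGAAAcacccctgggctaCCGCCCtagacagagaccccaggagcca

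The first Ptpn5 window had a GC content of 48.0% and 5 CpGs, against medians of 52.4% and 6 over 32851 promoter windows of the same length. Its 1 capital run is a GGAAA word, and 55.6% of all windows held that word on either strand. A second Ptpn5 window, chr7:47132599-47132848, whose letters are not shown because part of it is annotated as untranslated exon of another Ptpn5 transcript, was richer in GC, at 66.0% with 16 CpGs. It held 3 Sp words and 1 Runx word, which runs into an Sp word without a gap. The Ptpn13 window had a GC content of 72.4% with 24 CpGs, 2 Sp words and 1 CCAAT word. The first Ptpn7 window had a GC content of 66.0% with 9 CpGs and 1 Sp word, and the second 61.2% with 6 CpGs, 2 GGAAA words and 1 Sp word. Over all windows, 32.7% held an Sp word, 33.8% a CCAAT word, 14% a Runx word, 7.02% a STAT word, 6.75% an AP-1 word and 1.55% a CRE word. A match describes letters only. RefSeq windows were found for 8 of the 10 members, 11 windows in all.

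Ptpn7 and its neighbor start back to back. The annotated starts of Ptpn7 and of Ptprv, a receptor-type phosphatase gene on the opposite strand, are 105 bases apart, so the first Ptpn7 window runs into Ptprv. In the annotation no member shares exon bases with a protein-coding gene. Ptpn6 shares 195 exon bases with the antisense gene Gm20531, and Ptpn13 shares 70 with the antisense gene Gm42620. The sources did not say if strand was used in counting, so reads of these antisense genes cannot be told apart from those of Ptpn6 and Ptpn13.

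Totals ranged from 32032631 to 40728419 counts per sample. Zfp335 averaged 99.4 ± 4.50 CPM (SD, n = 3 here and below) over WT samples and 38.3 ± 1.66 CPM over KO samples, a log2 fold change (log2 FC, KO over WT) of -1.37 (SE 0.07, edgeR quasi-likelihood adjusted p = 2.143e-05). CPM is the count relative to the library total after TMM scaling. Zfp335 shares exon bases with Pcif1, which is on the other strand. WT replicate 3 stood apart from the other WT samples: the biological coefficient of variation was 0.263 over the 3 WT samples, 0.126 without it and 0.0703 over the KO samples. Of 6 T cell and Treg markers, Foxp3 (log2 FC -0.88) and Ikzf2 (-1.11) fell, though Foxp3 was at -0.57 without WT replicate 3, under the fold cutoff. The others did not pass the cutoffs: Cd4 was higher (0.26), and Cd3e (-0.45), Ctla4 (-0.41) and Il2ra (-0.12) were lower. Without WT replicate 3, Ctla4 was at -0.07 and Il2ra at 0.08. The summed CPM of all 6 markers was 3927 to 5104 in WT and 3309 to 3405 in KO samples. Summed CPM of 3 myeloid markers (Lyz2, Csf1r, Itgam) was 8.41 to 19.4 in WT and 37.6 to 42.4 in KO samples, and all 3 rose, while Cd14 was not in the table. The neutrophil markers S100a8 and S100a9 had no counts in any WT sample and together 3.57 to 5.42 CPM in KO samples. The B cell sum was 3.67 to 7.77 in WT and 5.12 to 6.80 in KO samples, the NK cell sum 1.71 to 2.58 and 3.39 to 5.05, and the CD8 sum 9.32 to 13.2 and 12.02 to 12.7. Of these, Klrb1c and Cd8a passed the cutoffs given below, both higher, and no B cell marker did. The calls of Lyz2, Klrb1c and Cd8a were each lost in 3 or more of the 6 fits with 1 sample left out.

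Among the 10 phosphatases, Ptpn5 was lower and Ptpn13 higher in KO Tregs by the cutoffs used, a fold change above 1.5 with p under 0.05 and adjusted p under 0.1. These 2 stand beside a background of 24.4% of all 13594 genes tested, of which 11.9% were higher and 12.5% lower. The other 8 had fitted folds under 1.5 in either direction. All 10 passed the filter on low counts. KO and WT samples did not overlap for 8 of the 10 members, beside 53.8% of all genes. Without the fold cutoff, 8 members had an adjusted p under 0.1, beside 47.0% of all genes. The fitted change was positive for 6 members and negative for 4, with a median log2 fold change of 0.03 (all genes, -0.04). The members were chosen with these values known, and nothing is read from these counts. In bulk RNA, fewer cells of a type and less RNA per cell cannot be told apart.

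**Figure D1:**
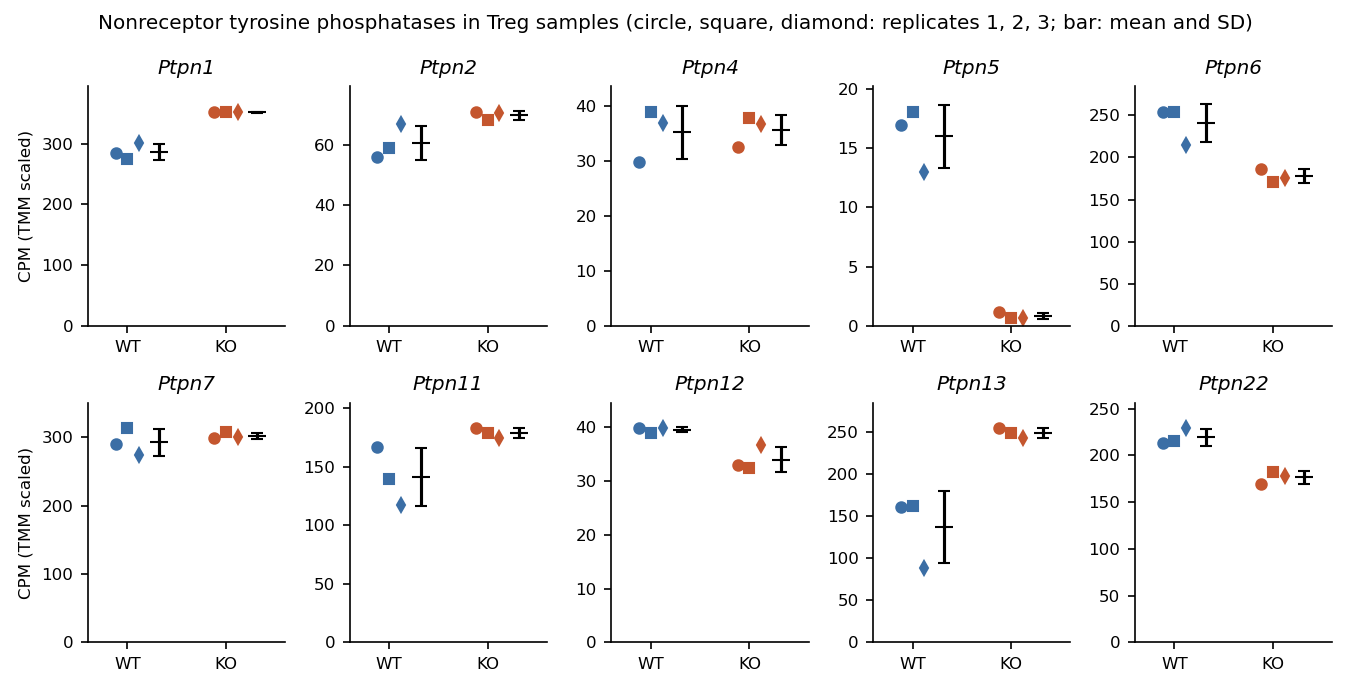
CPM (linear axis from 0, scale set per gene) of each of the 10 phosphatases in the 3 WT and 3 KO samples, with the mean and SD as a bar. Ptpn5 is near the axis in KO samples, the WT diamond (replicate 3) is the low point for Ptpn13, and the genotypes overlap for Ptpn4 and Ptpn7.

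Of the MAP kinase phosphatases, Ptpn5 was lower in KO samples by the cutoffs and Ptpn7 was not called. Ptpn5 (STEP), best known from neurons, where it dephosphorylates p38 and Fyn, spans chr7:47077795-47133684 on the minus strand. It was at 16.9, 18.1 and 13.0 CPM in WT replicates 1 to 3 and at 1.15, 0.672 and 0.652 CPM in the KO replicates. The KO samples all lay far under the WT samples, and none was at 0. In counts, the WT samples had 623, 594 and 433 and the KO samples 42, 27 and 23. This is a log2 FC of -4.27 (SE 0.27), 19.4-fold lower in KO, and the KO mean was 5.15% of the WT mean. Leaving out WT replicate 3 gave -4.41.

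Ptpn7 (HePTP), the hematopoietic relative of Ptpn5 that holds MAP kinases in check in lymphocytes, gave a different picture. It was at 291, 314 and 275 CPM in WT and at 299, 308 and 301 CPM in KO samples. All KO values lay inside the WT range. Its log2 FC was 0.05 (SE 0.07, 95% interval -0.09 to 0.19). Leaving out WT replicate 3 gave -0.00081.

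The MAP kinase genes that these phosphatases dock on held 1 gene of 6 past the cutoffs, beside 24.4% of all genes. Mapk11, which encodes p38 beta, fell from 97.2 ± 1.86 to 38.8 ± 1.96 CPM (log2 FC -1.32, SE 0.07, edgeR adjusted p = 2.143e-05). Mapk14, which encodes p38 alpha, was at 133 ± 7.18 and 117 ± 7.27 CPM (log2 FC -0.18, edgeR adjusted p = 0.0889) and stayed under the fold cutoff.

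Among the FERM and PDZ phosphatases, Ptpn13 (PTP-BL in mouse), a very large protein that binds many membrane and cytoskeletal partners, was the only member higher in KO samples by the cutoffs. Its gene spans chr5:103425192-103598303 on the plus strand. It was at 161, 162 and 88.1 CPM in WT and at 255, 249 and 243 CPM in KO samples. Every KO sample was above every WT sample, and WT replicate 3 lay far below the others, at 0.545 times their mean. With all samples the log2 FC was 0.86 (SE 0.21), or 1.81-fold, and it was 0.62 without WT replicate 3, just over the fold cutoff of 0.58.

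Ptpn4 (PTP-MEG1), the smaller relative that dephosphorylates the T cell receptor zeta chain in vitro, was at 29.7, 38.9 and 36.8 CPM in WT and at 32.5, 37.8 and 36.6 CPM in KO samples. The KO values again lay inside the WT range. Its log2 FC was 0.02 (SE 0.12, 95% interval -0.22 to 0.25).

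**Figure D2:**
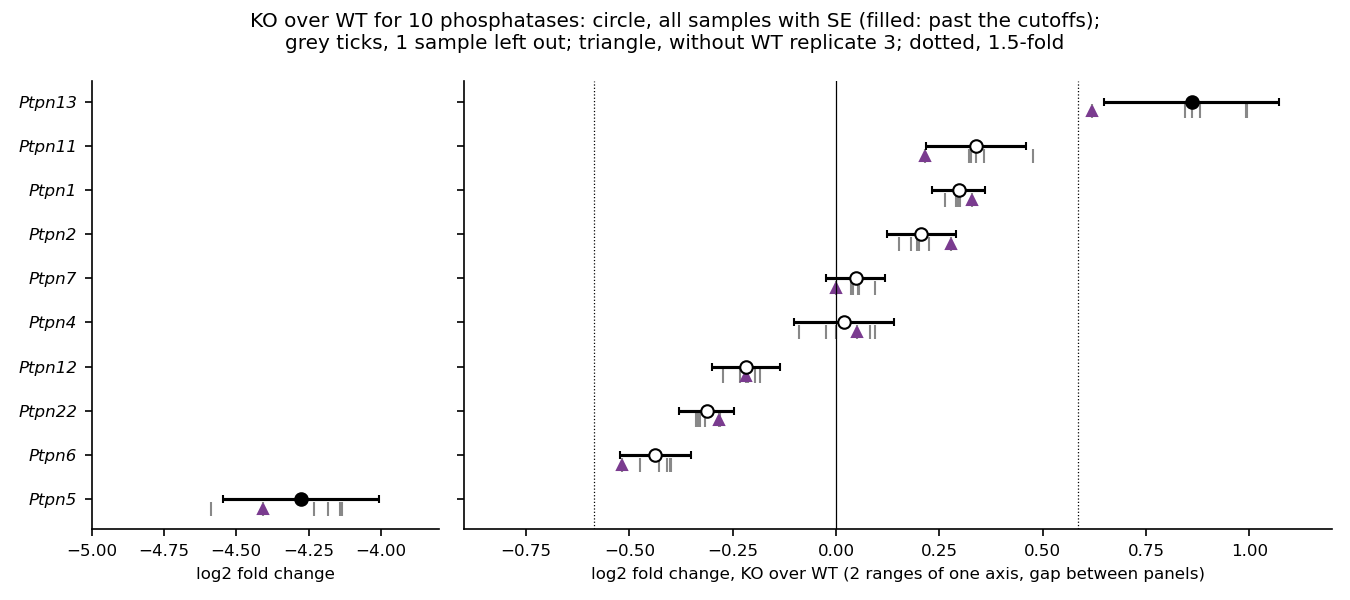
Log2 fold change of KO over WT for the 10 phosphatases with all samples (circle, SE as a bar, filled past the cutoffs), with 1 sample left out in turn (grey ticks) and without WT replicate 3 (triangle); the horizontal axis is drawn in 2 ranges. Ptpn5 stays between -4.59 and -4.14, and Ptpn13 moves to 0.62 without WT replicate 3.

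The SH2-domain pair differed in direction, and neither passed the fold cutoff. Ptpn6 (SHP-1), an inhibitor of antigen receptor signals that docks on inhibitory receptors, was at 253, 254 and 215 CPM in WT and at 187, 171 and 176 CPM in KO samples. All KO samples were below all WT samples. The fitted log2 FC was -0.44 (SE 0.09), the KO mean being 73.8% of the WT mean, and it was -0.52 without WT replicate 3. Ptpn6 is also high in myeloid cells, whose markers were higher in KO samples as given above, while Ptpn6 itself was lower there; their part was not tested.

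Ptpn11 (SHP-2), which promotes Ras signaling downstream of growth factor and cytokine receptors, was at 167, 140 and 117 CPM in WT and at 183, 179 and 174 CPM in KO samples. All KO samples were above the WT samples, which spread widely. For Ptpn11 the log2 FC was 0.34 (SE 0.12), and it was 0.21 without WT replicate 3. The ratio of Ptpn6 to Ptpn11 CPM was 1.52, 1.82 and 1.84 in WT and 1.02, 0.957 and 1.01 in KO samples. Ptpn6 was lower and Ptpn11 higher in every KO sample, so the ratios could not overlap between genotypes. In KO samples both genes had about equal CPM, which is not scaled by exon length. Per kilobase of annotated exons, the KO means were 68.2 CPM for Ptpn6 and 31.8 CPM for Ptpn11.

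Of the inhibitory receptors that recruit these SH2 phosphatases, 8 were tested and 3 passed the cutoffs, 1 higher and 2 lower. The share called over all genes was 24.4%. The fitted change was negative for 6 of the 8, with a median log2 fold change of -0.49. Cd5, which tunes the antigen receptor response, fell from 642 ± 15.2 to 349 ± 6.16 CPM (log2 FC -0.88, SE 0.06, edgeR adjusted p = 5.881e-05). Btla, the receptor of HVEM, fell from 222 ± 18.8 to 139 ± 2.79 CPM (log2 FC -0.67, SE 0.08, edgeR adjusted p = 0.000552). Lair1, a collagen receptor, rose from 3.39 ± 0.455 to 14.5 ± 1.94 CPM (log2 FC 2.09, SE 0.17, edgeR adjusted p = 0.000138). Myeloid cells also carry Lair1, and the part of the myeloid markers in its rise was not tested. Slamf6 (log2 FC -0.44, edgeR adjusted p = 0.00216) and Pecam1 (-0.53, adjusted p = 0.000721) stayed under the fold cutoff. Lilrb4a, also in this list, stands on 2 rows of the table and is not in these counts. Both rows were higher in KO samples and passed the cutoffs (log2 FC 3.47, edgeR adjusted p = 0.0068, and 4.70, adjusted p = 0.00507). Myeloid cells carry Lilrb4a as well.

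Of the adaptors and Ras genes downstream of Ptpn11, 8 were tested and 1 passed the cutoffs, beside 24.4% of all genes. Gab2, an adaptor that recruits Ptpn11, was at 1.14 ± 0.579 and 2.74 ± 0.9997 CPM (log2 FC 1.26, SE 0.45, edgeR adjusted p = 0.0594). The call was lost in 4 of the 6 fits with 1 sample left out, those without WT replicate 1, WT replicate 2, KO replicate 1 or KO replicate 3, with log2 fold changes of 0.93 to 1.35. Grb2 (0.20, adjusted p = 0.0772) and Nras (0.36, adjusted p = 0.0211) stayed under the fold cutoff.

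Ptpn1 (PTP1B), an endoplasmic reticulum phosphatase that acts on Jak2, Tyk2 and the insulin receptor, was at 284, 275 and 301 CPM in WT and at 352, 353 and 352 CPM in KO samples. Every KO sample was above every WT sample, and the KO values hardly differed from each other. Its log2 FC was 0.30 (SE 0.06), or 0.33 without WT replicate 3. Ptpn2 (TC-PTP), its nearest relative, which acts on Jak1, Jak3 and Stat5, was at 56.0, 58.8 and 66.7 CPM in WT and at 70.9, 68.0 and 70.3 CPM in KO samples. The groups did not overlap, though WT replicate 3 came close to the KO samples. For Ptpn2 the log2 FC was 0.21 (SE 0.08), or 0.28 without WT replicate 3.

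Among the 10 Jak and Stat genes that Ptpn1, Ptpn2 and Ptpn6 act on, 2 passed the cutoffs, both higher, beside 24.4% of all genes. Jak2 rose from 175 ± 27.6 to 325 ± 0.818 CPM (log2 FC 0.89, SE 0.11, edgeR adjusted p = 0.000721). Stat4, which acts downstream of IL-12, rose from 66.2 ± 8.61 to 149 ± 4.32 CPM (log2 FC 1.17, SE 0.10, edgeR adjusted p = 0.000138). Jak1 was at 672 ± 43.4 and 607 ± 4.91 CPM (log2 FC -0.15, edgeR adjusted p = 0.134), and it shares 4 exon bases with Raver2.

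In the PEST group, Ptpn22 (PEP), which removes the activating phosphate from Lck and Zap70 in partnership with Csk, was at 213, 216 and 229 CPM in WT and at 169, 183 and 178 CPM in KO samples. All KO samples were lower than all WT samples. The fitted log2 FC was -0.31 (SE 0.07), the KO mean being 80.5% of the WT mean. Ptpn12 (PTP-PEST), which acts on cytoskeletal scaffolds, was at 39.7, 38.9 and 39.7 CPM in WT and at 32.9, 32.3 and 36.6 CPM in KO samples. The WT values were nearly alike and all KO values were below them. Its log2 FC was -0.22 (SE 0.08).

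Of the 8 proximal antigen receptor signaling genes, 1 passed the cutoffs, beside 24.4% of all genes. Pag1, the membrane adaptor that brings Csk to Src family kinases, rose from 128 ± 6.09 to 247 ± 3.44 CPM (log2 FC 0.95, SE 0.07, edgeR adjusted p = 5.468e-05). Csk itself, singled out after its values were seen, was at 434 ± 12.9 and 320 ± 7.13 CPM (log2 FC -0.44, edgeR adjusted p = 0.00128). The kinases Lck (log2 FC -0.16, edgeR adjusted p = 0.272) and Fyn (-0.41, adjusted p = 0.00132) did not pass the cutoffs. Of 6 cytoskeletal partners of Ptpn12, Bcar1, the p130Cas scaffold, had a low level of 2.88 ± 1.08 CPM in WT samples and 1.34 ± 0.428 CPM in KO samples (log2 FC -1.10, SE 0.40, edgeR adjusted p = 0.0615). That call was lost without WT replicate 2 or any 1 KO replicate (-1.24 to -0.76), and with a replicate block (-1.08). Ptk2b (-0.11, adjusted p = 0.249) and Was (0.12, adjusted p = 0.161) did not pass.

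Over all 46 partner genes tested, 5 were higher and 4 lower by the cutoffs, with a median log2 fold change of -0.08. These 9 of 46 stand beside the 24.4% called over all genes.

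Levels per kilobase of annotated exons (CPM per kb, WT means) put the members in the order Ptpn6 at 92.4, Ptpn7 at 85.3, Ptpn22 at 79.9, Ptpn1 at 68.0, Ptpn11 at 25.2, Ptpn2 at 20.0, Ptpn13 at 17.3, Ptpn12 at 12.03, Ptpn5 at 4.48 and Ptpn4 at 3.16. The WT sample ranges of neighbors overlapped for Ptpn6 and Ptpn7, Ptpn7 and Ptpn22, Ptpn11 and Ptpn2, Ptpn2 and Ptpn13, and Ptpn13 and Ptpn12. In KO samples the order was Ptpn7 at 88.2, Ptpn1 at 83.5, Ptpn6 at 68.2, Ptpn22 at 64.3, Ptpn11 at 31.8, Ptpn13 at 31.5, Ptpn2 at 23.0, Ptpn12 at 10.3, Ptpn4 at 3.20 and Ptpn5 at 0.231. Only Ptpn6 and Ptpn22, and Ptpn11 and Ptpn13, overlapped there. Ptpn6, the top member in WT, was the third in KO samples, and Ptpn1 went from the fourth to the second.

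**Figure D3:**
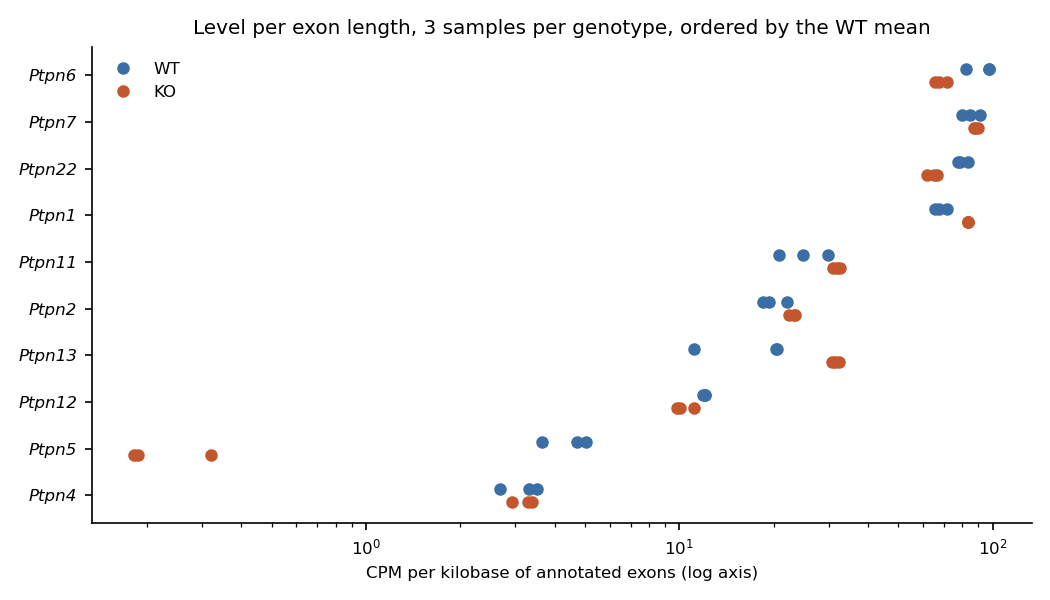
CPM per kilobase of annotated exons (log axis) of the 10 phosphatases in each WT and KO sample, ordered by the WT mean. A group of 4 (Ptpn6, Ptpn7, Ptpn22, Ptpn1) lies above the other members in every sample, and Ptpn5 drops from 4.48 to 0.231 on average.

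The summed CPM of the 10 members was 1511, 1515 and 1381 in WT and 1582, 1580 and 1567 in KO samples. The KO sums lay above the WT sums, with WT replicate 3 the lowest. The KO sums fell inside the WT range once the CPM of Ptpn13 was taken out, and likewise once that of Ptpn1 was taken out instead. Ptpn13 made up 10.7%, 10.7% and 6.38% of the sum in WT and 16.1%, 15.8% and 15.5% in KO samples.

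Outside the members, 17 of the 28 other classical tyrosine phosphatases were tested and 6 passed the cutoffs, 4 higher and 2 lower, beside 24.4% of all genes. Among the 6 other nonreceptor genes, Ptpn14, a FERM phosphatase that holds Yap in the cytoplasm, rose from 1.83 ± 0.487 to 5.48 ± 0.453 CPM (log2 FC 1.58, SE 0.26, edgeR adjusted p = 0.00262). Ptpn3, the FERM and PDZ relative of Ptpn4, rose from 10.7 ± 2.28 to 24.4 ± 1.48 CPM (log2 FC 1.18, SE 0.17, edgeR adjusted p = 0.00123). Ptpn18, the remaining PEST phosphatase, fell from 77.2 ± 12.1 to 47.5 ± 4.91 CPM (log2 FC -0.70, SE 0.13, edgeR adjusted p = 0.00432). Ptpn9 (0.45, adjusted p = 0.00783) and Ptpn23 (-0.07, adjusted p = 0.493) did not pass.

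Among 11 receptor-type genes tested, Ptprk, a cell adhesion phosphatase, had 13, 0 and 5 counts in WT samples, or 0.353, 0 and 0.150 CPM. It was at 2.63, 3.56 and 3.20 CPM in KO samples, and rose (log2 FC 4.16, SE 0.77, edgeR adjusted p = 0.00432). Its fold rests on WT counts near 0: the log2 FC ran from 3.60 without WT replicate 2 to 5.31 without WT replicate 1, and the gene is not tested when at least 10 counts are required in every sample. Ptprj (CD148), which can switch Src family kinases on or off, rose from 40.0 ± 6.37 to 69.9 ± 5.44 CPM (log2 FC 0.80, SE 0.12, edgeR adjusted p = 0.00182). Ptprs, a proteoglycan receptor, was at 236, 221 and 124 CPM in WT and at 91.3, 92.5 and 95.2 CPM in KO samples, and fell (log2 FC -1.06, SE 0.22, edgeR adjusted p = 0.00648). Ptprc (CD45), the main receptor-type phosphatase of leukocytes, was at 1900 ± 29.4 and 1892 ± 35.4 CPM (log2 FC -0.01, edgeR adjusted p = 0.944). Ptpra was also uncalled (0.08, adjusted p = 0.401). Ptprv, the neighbor of Ptpn7 and singled out after its values were seen, was at 46.4 ± 2.55 and 37.6 ± 1.38 CPM (log2 FC -0.30, edgeR adjusted p = 0.0183) and did not pass the fold cutoff.

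**Figure D4:**
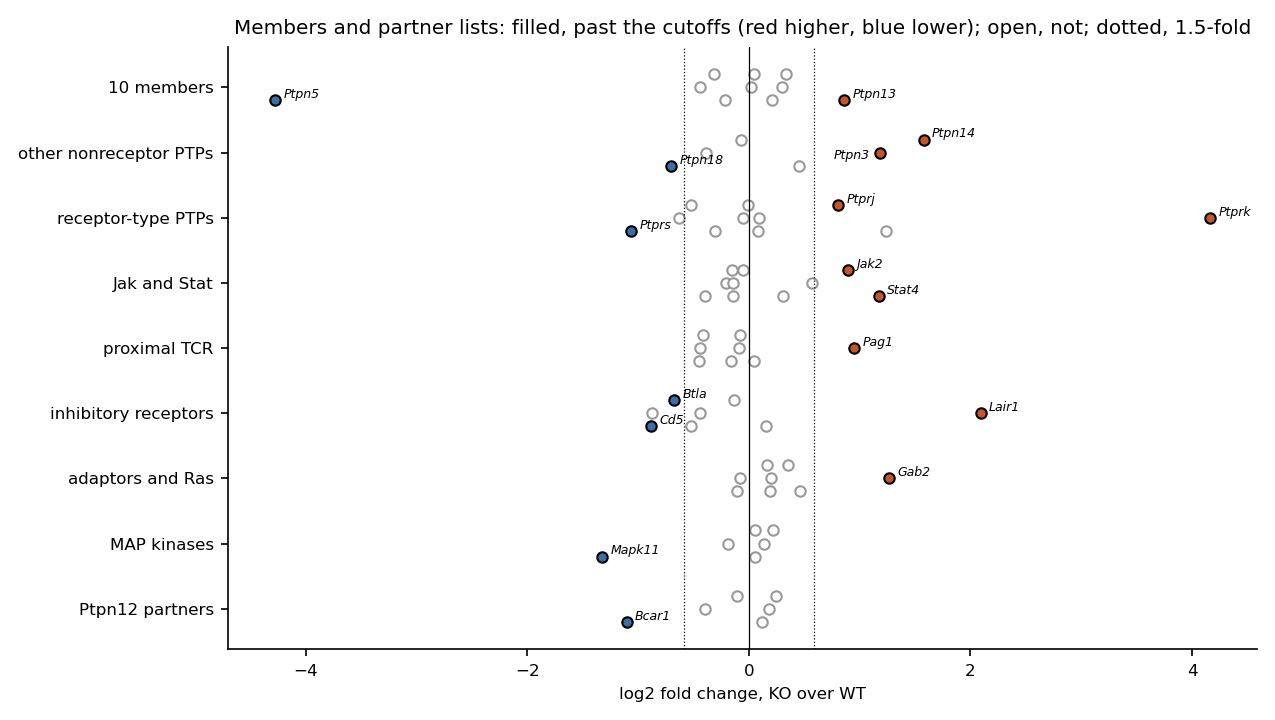
Log2 fold change of KO over WT for each tested gene of the members and of the lists of other phosphatases and partners; filled points passed the cutoffs and dotted lines mark the 1.5-fold limits. Ptpn5 at -4.27 is the lowest point drawn and Ptprk at 4.16 the highest.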

How the data were processed

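Bulk RNA-Seq counts of sorted Tregs from 3 WT and 3 KO samples were analysed. The study's methods name SOAPnuke for read filtering, HISAT2 for alignment to mm10 (at most 1 alignment kept for a read) and StringTie for gene quantification. The authors deposited whole-number counts per gene without normalization. How whole numbers were obtained, the annotation and the strand setting were not given in the sources used here. The smallest sum of a gene was 60, so low genes had been removed.

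The counts were tested with edgeR 4.0.16 (R 4.3.3), with filterByExpr at a minimum count of 10, TMM (trimmed mean of M values) scaling and a quasi-likelihood comparison of KO against WT without covariates, two-sided. Benjamini-Hochberg adjustment covered all 13594 genes tested, after 115 were removed by the filter. A gene was called at a fold above 1.5, p under 0.05 and adjusted p under 0.1. SE is the size of the log2 fold change divided by the square root of F. The procedure was tested on simulated data. Those data had the same spread in both genotypes, so the wider spread of the WT samples was not covered. Depth of 32032631 to 40728419 counts puts 3 counts at 0.0747 to 0.0913 CPM.

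The members and lists were chosen with earlier results of these data known. Named were all members, Zfp335, up to 6 called genes with the largest change and up to 2 uncalled genes with the highest CPM per list, genes overlapping members, and the 3 genes nearest in pattern to Ptpn5 and to Ptpn13. Lilrb4a, on more than 1 row, was left out. Some genes that this rule names are not reported here. Exon lengths came from GENCODE M21 (GRCm38), which held 97.9% of symbols. Promoters came from RefSeq (GRCm38.p6), and the motifs were chosen after those sequences were seen. Alternatives were other scalings, filters and cutoffs, DESeq2 1.42.0, a GC and length correction, a replicate block and leaving out each sample.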

Additional observations from a re-analysis of the deposited data

How the results depend on the processing

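The members called were 2 under RLE size factors, library totals, a GC and length correction, DESeq2, no filter, at least 10 counts in every sample, and in all 6 fits with 1 sample left out (2 to 2). The other phosphatases called were 6 to 6, the partners 7 to 10 and all genes 2867 to 3667 with 1 sample left out. With an adjusted p under 0.05 and no fold cutoff, calls were 5 of 10 members, beside 5244 of all 13594 genes. The same cutoff called 8 of 17 other phosphatases and 19 of 46 partners. Testing against the fold of 1.5 (glmTreat) called 1 of 10 members, Ptpn5, beside 1686 of 13594 genes, by the construction of a stricter test. It left 4 other phosphatases and 6 partners called, without Ptpn13, Ptpn18, Ptprj, Btla, Gab2 and Bcar1. The replicate block gave 2 members, 6 other phosphatases, 8 partners and 3190 of 13594 genes. Same-numbered samples did not deviate together (correlations 0.06, 0.03 and -0.0042); the best match was the same number for WT replicates 1 and 2 and not for WT replicate 3, so the numbers were not treated as pairs.

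Reversals among the named genes were near 0 and uncalled. Ptprc moved from -0.0064 to 0.011 with RLE size factors and with DESeq2, to 0.0028 with at least 10 counts in every sample, and ranged from -0.0212 to 0.00381 with 1 sample left out. Ptpn4 moved to -0.019 with library totals and ranged from -0.089 to 0.0942. Ptpn7 ranged from -0.000806 to 0.0948. Ptpn23 moved to 0.010 with the GC and length correction. The cause was not tested. Among the members the WT samples spread most for Ptpn13 and Ptpn11, and counts of 23 to 42 limit Ptpn5 in KO samples.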

Other observations

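The genes of at least 5 mean CPM whose pattern over the 6 samples was nearest to that of Ptpn5, by the root mean square difference of centred log2 CPM, were Apol9a (0.359), Npas4 (0.404) and Chdh (0.410). Npas4, an activity-induced transcription factor, averaged 20.6 ± 7.97 CPM (SD, n = 3) over WT samples and 0.584 ± 0.141 CPM over KO samples. Chdh, the choline dehydrogenase of mitochondria, had 24.0 ± 4.16 and 2.42 ± 0.362 CPM, and Apol9a had 15.3 ± 2.14 and 0.539 ± 0.198 CPM.

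The nearest to Ptpn13 were Rfc5 (0.0351), D430041D05Rik (0.0612) and Dnmt1 (0.0626). Dnmt1, the maintenance DNA methyltransferase, averaged 297 ± 80.5 CPM over WT samples and 530 ± 6.26 CPM over KO samples. Rfc5, a subunit of the clamp loader of DNA replication, had 37.8 ± 11.3 and 70.1 ± 1.42 CPM, and D430041D05Rik had 3.75 ± 1.29 and 6.74 ± 0.526 CPM. These genes were picked for their likeness in these 6 samples, so no test of the likeness is given.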
